A study of Mus musculus with 14 samples.

Results

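The genes described here are 10 members of the cell-death machinery of the mitochondria: the BH3-only genes Hrk, Bcl2l11, Bbc3, Pmaip1, Bad and Bid, the effector Bax, and the pro-survival genes Bcl2, Bcl2l1 and Mcl1. They were taken by symbol from a deposited table of 45802 features, in which all 10 were found. All 10 were also among the 10877 genes tested. Bcl2 family proteins control whether the outer mitochondrial membrane becomes permeable to cytochrome c, the step that commits a cell to intrinsic apoptosis. Pro-survival members hold the effectors Bax and Bak in check, and BH3-only proteins, which share only the short BH3 helix with the rest of the family, bind the pro-survival members or activate the effectors. In developing neurons several BH3-only genes are known to be switched on at the RNA level, for example Hrk and Bcl2l11 after loss of trophic support.

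RNA was sequenced from primary cortical neuron cultures of wild-type C57BL/6 mice after 12 days in vitro, as 14 ribosome-depleted libraries in 5 groups, each treated for 1 h. The control group received 1% DMSO and has 2 libraries, labelled replicates 2 and 3, and each of the other groups has 3 libraries. Those groups were given 20 µM bicuculline, which blocks GABA-A receptors and so increases firing, 4% (v/v) of peptides made by the neuronal membrane proteasome and purified (NMP peptides), 4% (v/v) of these peptides after digestion by proteinase K (PK-cleaved NMP peptides), or 4% (v/v) NMP peptides with 100 µM APV, an NMDA receptor antagonist. A group with APV alone is not among these libraries, and a DMSO content is stated for the control group only, so solvent and treatment cannot be told apart in comparisons with DMSO. The replicates are called biological, but whether they came from separate cultures or animals is not stated, and a p-value here covers only the spread between libraries.

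Values are quantile-normalised signals on a log2 scale, per transcript length, and how deeply each library was sequenced is unknown. Each library has values for 15824 to 16231 features. Neuronal markers were abundant in every library, from 9.02 to 9.55 for Tubb3 and from 3.95 to 4.34 for Rbfox3. Astrocyte markers were present too, at 7.12 to 7.57 for Slc1a3, while the microglial gene Tmem119 had a value in only 5 libraries and the endothelial gene Cldn5 in only 2. Gfap, an astrocyte intermediate filament gene, was highest in 4 libraries, at 3.97 to 4.18. These were DMSO replicate 2, bicuculline replicate 2, and replicate 3 of NMP peptides and of PK-cleaved NMP peptides. Bicuculline replicate 3 followed at 3.47 and is not counted among these 4. The rest lay between 2.15 and 2.87. The activity-regulated gene Npas4 rose from 1.31 ± 0.70 (SD, n = 2) with DMSO to 5.64 ± 0.49 (SD, n = 3) with bicuculline.

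Levels of the 10 genes spanned a wide range in these cultures. On the log2 scale per length, Mcl1 had the highest mean over the 14 libraries, 4.84, followed by Bax at 4.69 and Hrk at 4.66. Each of these lay above at least 77.4% of the genes tested. Bad followed at 4.30, Bcl2l1 at 3.69, Bbc3 at 3.41 and Bid at 2.90. Pmaip1 at 1.83, Bcl2 at 1.19 and Bcl2l11 at 0.54 were the lowest, and only 2.2% of tested genes lay below Bcl2l11. Hrk also varied most, with a range of 1.31 over the libraries, against a median range of 0.46 over all tested genes. Pmaip1 (1.04), Bbc3 (0.91) and Bcl2l11 (0.81) came next, and Bcl2l1 varied least, by 0.33. Among the 10 genes Hrk took ranks from 1 to 4, depending on the library.

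**Figure D1:**
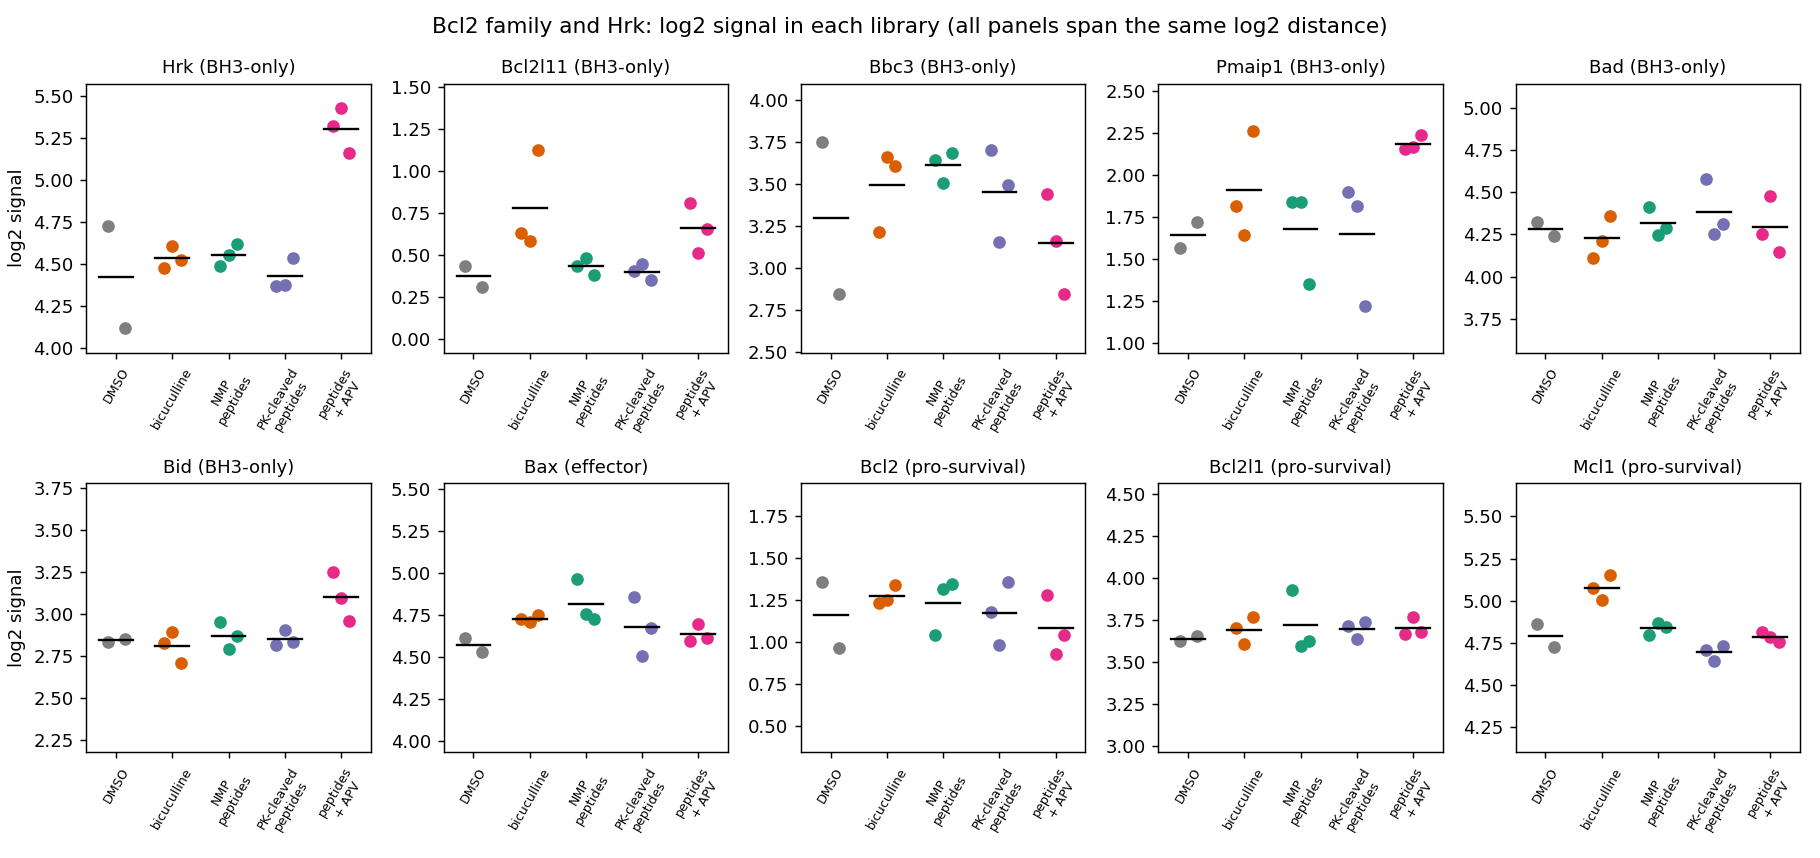
Log2 signal (vertical axis) of the 10 genes in each of the 14 libraries, by treatment group on the horizontal axis. Points are libraries and bars are group means, and every panel spans the same log2 distance. The 3 Hrk points with NMP peptides plus APV lie between 5.16 and 5.43, above the 4.72 of the highest other library, and the 3 Mcl1 points with bicuculline lie between 5.00 and 5.15, above all others.

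RNA of 2 of the 10 genes differed past the threshold between groups after 1 h, with the higher level in a different group for each. Hrk was higher with NMP peptides plus APV than in each of the other groups, by 1.68-fold to 1.84-fold. Mcl1 was higher with bicuculline than with PK-cleaved NMP peptides, by 1.31-fold, and than with NMP peptides plus APV, by 1.23-fold. Its differences between bicuculline and DMSO or NMP peptides alone were not called. Of 100 tests of the 10 genes over the 10 pairs of groups, 6 passed an adjusted p of 0.05 in limma's test across all tested genes, 4 for Hrk and 2 for Mcl1. The other 8 genes were called in no pair. Over all tested genes the share called in a pair ran from 0.0% to 3.33%. Bulk RNA gives levels over a whole culture, so fewer cells of a type and less RNA per cell cannot be told apart.

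Hrk encodes harakiri, a BH3-only protein of neurons that binds Bcl2 and Bcl-xL. With NMP peptides plus APV its log2 signal was 5.32, 5.43 and 5.16. It was 4.49, 4.55 and 4.61 with NMP peptides alone and 4.37, 4.38 and 4.54 with PK-cleaved NMP peptides. It was 4.48, 4.61 and 4.52 with bicuculline, and 4.72 and 4.12 with DMSO. The 3 libraries with APV stood above all 11 others, and the other groups overlapped one another. The 2 DMSO libraries lay further apart than any other group, with an SD of 0.43 against 0.07 to 0.13 elsewhere, and 1 of them was the lowest of the 14 while the other was the highest without APV.

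By stated treatment, NMP peptides alone differ from NMP peptides plus APV only in the APV. A solvent content is stated for neither group. Between them the log2 difference of Hrk was -0.75 (NMP peptides minus NMP peptides plus APV, SE 0.12, 95% confidence interval -1.01 to -0.49, limma adjusted p = 0.00685), or 1.68-fold higher with APV. Hrk was the only one of the 10 genes called there, where 0.552% of all genes tested were called lower without APV and 1.43% in either direction. Against PK-cleaved NMP peptides the difference was 0.87 (SE 0.12, interval 0.61 to 1.13, adjusted p = 0.00287), again the only call among the 10, with 0.607% of all genes called higher and 1.39% in either direction. Bicuculline minus NMP peptides plus APV gave -0.77 (interval -1.03 to -0.51, adjusted p = 0.00203), where 0.947% of all genes were called in that direction and 3.33% in either. Hrk kept these 3 calls in all 14 alternatives run for each.

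Against DMSO the difference of Hrk was 0.88 (SE 0.14, interval 0.59 to 1.17, adjusted p = 0.00736), or 1.84-fold, and 0.175% of all genes were called higher there and 0.625% in either direction. In all, 19 genes were called higher and 49 lower than with DMSO, or 28 and 42 once each library was centred on its median. That call rests on DMSO replicate 3: without it the difference was 0.58 (adjusted p = 0.113), and without replicate 2 it was 1.19 (adjusted p = 0.00101). With only these 2 groups in the fit the adjusted p was 0.0798. The 4 comparisons share the libraries with APV and are not independent of each other.

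By size, Hrk was number 3 of the 19 genes called higher than with DMSO, number 4 of the 66 called higher than with PK-cleaved NMP peptides, and number 8 of the 60 called higher with APV than with NMP peptides alone. It was one of 16 genes called higher with APV than in each of the other 4 groups, which is 0.147% of the genes tested. Its mean difference over the 4 comparisons, 0.82, came after Slc44a5, a choline transporter-like gene, at 1.48 and the transcription factor gene Elk1 at 1.17. In these libraries the position of all 3 APV values above all others was shared by 3.45% of tested genes. The 6 comparisons without APV gave no call for Hrk, with differences of at most 0.13. Bicuculline minus DMSO was 0.12 (interval -0.17 to 0.41), and NMP peptides minus DMSO was 0.13 (interval -0.16 to 0.42). A change inside those bounds is not excluded, and the bounds are not limits of detection.

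Hrk lies on chromosome 5, at 118169764 to 118189478 of GRCm38.p6 on the plus strand, and no other annotated gene overlaps it. Its RefSeq promoter is shown because Hrk is the member with the largest difference. The window is chr5:118169514-118169747, on the plus strand, and ends before the exon that GENCODE M21 places at the RefSeq start. GENCODE also has a longer Hrk transcript that starts upstream, at 118164648, so the window lies inside the gene as GENCODE draws it. Capitals mark matches to the motifs searched.
Hrk promoter: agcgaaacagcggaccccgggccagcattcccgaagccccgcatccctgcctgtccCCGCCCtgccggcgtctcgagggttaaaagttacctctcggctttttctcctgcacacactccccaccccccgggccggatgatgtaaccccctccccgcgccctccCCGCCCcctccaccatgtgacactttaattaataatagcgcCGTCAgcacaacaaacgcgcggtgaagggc
The capitals are 2 GC boxes (GGGCGG on either strand), starting 194 and 87 bases before the RefSeq start, and 1 core of the cyclic AMP response element (TGACG on either strand), 46 bases before it. Over the 250 bases before each of 32851 RefSeq starts, 32.7% held a GC box and 17.8% held such a core. No match was found in this window to an AP-1 site (TGANTCA, in 6.75% of windows), a full cyclic AMP response element (TGACGTCA, 1.55%), an Egr site (GCGTGGGCG, 0.536%), an E2F site (TTTCNCGC, 1.73%), a FOXO site (TGTTTAC, 3.17%) or a CArG box (1.47%). A match is a run of letters and says nothing of binding.

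Summed signals of some marker lists also differed in the APV group. The summed linear signal of 10 astrocyte markers was 414 to 429 with NMP peptides plus APV and 337 to 399 in all other libraries, without overlap. That of 7 inhibitory neuron markers was 459 to 482 with APV and 500 to 587 in the others. Linear sums weigh the most abundant genes most. Over all libraries Sst ran from 8.02 to 8.51 on the log2 scale and Gad2 from 3.14 to 3.81. Among astrocyte markers Slc1a3 ran from 7.12 to 7.57 and S100b from 0.37 to 1.52. Whether the markers of a list moved together was not tested. The neuron list overlapped between groups, at 1815 to 2189 with APV and 1801 to 2223 in the rest. Oligodendrocyte lineage markers (10 genes) were at 150 to 185 with APV and 128 to 172 elsewhere, and 4 markers of dividing cells at 16.9 to 23.7 and 11.8 to 20.3, both with overlap. The 8 microglial markers were near the floor, at 6.83 to 10.1 in sum over all libraries. Gfap itself was 2.61 to 2.77 with APV, inside the range of 2.15 to 4.18 of the other libraries. The part of these markers in the Hrk difference was not tested. Leaving out Gfap-rich libraries cannot test it, because the libraries with APV all stay in. With the 4 Gfap-rich libraries left out, none of which had APV, bicuculline minus NMP peptides plus APV was -0.80 for Hrk (adjusted p = 0.000893). For DMSO this leaves 1 library, so it gives the same difference as leaving out DMSO replicate 2.

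Of the other BH3-only genes, Pmaip1 and Bid had their highest means in the same group, but neither passed the test. Pmaip1, whose product Noxa mainly binds Mcl1, had values of 2.15, 2.17 and 2.24 with NMP peptides plus APV. It was at 1.84, 1.84 and 1.35 with NMP peptides alone, 1.90, 1.82 and 1.22 with PK-cleaved NMP peptides, 1.82, 1.65 and 2.27 with bicuculline, and 1.57 and 1.72 with DMSO. The APV libraries lay above both peptide groups and DMSO and overlapped with bicuculline, where 1 library was the highest of all. NMP peptides plus APV minus PK-cleaved NMP peptides was 0.54 (interval 0.13 to 0.94, adjusted p = 0.198), and the same treatment minus DMSO was 0.54 (adjusted p = 0.345). NMP peptides minus NMP peptides plus APV was -0.51 (adjusted p = 0.224).

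Bid, which links caspase-8 to the mitochondria once cleaved, was at 3.25, 3.09 and 2.96 with NMP peptides plus APV and at 2.71 to 2.95 in the other 11 libraries. All 3 APV values lay above all the others, the lowest of them by 0.01. Its largest difference was bicuculline minus NMP peptides plus APV, -0.29 (interval -0.47 to -0.11, adjusted p = 0.0791), and the difference to PK-cleaved NMP peptides was 0.25 (adjusted p = 0.179). With array weights, which give less weight to variable libraries, Bid and Pmaip1 both passed against PK-cleaved NMP peptides (adjusted p = 0.0369 and 0.0239). Bid also passed against bicuculline (adjusted p = 0.0175) and against NMP peptides alone (adjusted p = 0.0417). How many of all tested genes passed with these weights is not reported here, so these gains cannot be set against that share. Exons of Bid share 17.7% of their length with Bcl2l13 on the opposite strand. Whether counting used strand is not given in the sources used here, so reads of the pair may not be separable. Bcl2l13 itself, a family member, differed by -0.06 between NMP peptides plus APV and PK-cleaved NMP peptides.

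Bcl2l11 encodes Bim, which binds all pro-survival members and can activate Bax. It was the lowest of the 10 genes in every library, at 0.63, 0.59 and 1.13 with bicuculline and at 0.81, 0.51 and 0.65 with NMP peptides plus APV. The other 8 libraries were between 0.31 and 0.48. So both of these groups lay above DMSO and both peptide groups, but the bicuculline mean of 0.78 ± 0.30 (SD, n = 3) includes 1 library well above the other 2. Bicuculline minus DMSO was 0.41 (interval 0.06 to 0.76) and bicuculline minus PK-cleaved NMP peptides was 0.38 (interval 0.07 to 0.69), with adjusted p values of 0.996 and 1. NMP peptides plus APV minus DMSO was 0.28 (interval -0.06 to 0.63, adjusted p = 0.528).

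Bbc3 encodes Puma, a p53 target. Its log2 signal was 3.64, 3.51 and 3.69 with NMP peptides and 3.44, 3.16 and 2.84 with NMP peptides plus APV, which did not overlap. It was 3.70, 3.15 and 3.49 with PK-cleaved NMP peptides, 3.21, 3.66 and 3.61 with bicuculline, and 3.75 and 2.84 with DMSO. The 2 DMSO libraries were the highest and the lowest of the 14, and their SD of 0.64 compares with a median of 0.095 over all genes tested in that group. NMP peptides minus NMP peptides plus APV was 0.46 (interval 0.01 to 0.92, adjusted p = 0.309). Bbc3 was the BH3-only gene with its lowest mean in the group where Hrk, Pmaip1 and Bid had their highest.

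Bad, a BH3-only protein held inactive by phosphorylation when growth factors are present, differed by no more than 0.15 between any pair of groups. Its values ran from 4.11 to 4.58, and in every pair of groups the libraries overlapped. Exons of Bad share 20.5% of their length with Gpr137 on the opposite strand. For NMP peptides minus NMP peptides plus APV the difference was 0.02, with an interval of -0.20 to 0.24.

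Bax, the effector that forms pores in the outer mitochondrial membrane, was highest on average with NMP peptides, at 4.96, 4.75 and 4.72, and lowest with DMSO, at 4.61 and 4.53. Those groups did not overlap, and the difference was 0.24 (interval 0.03 to 0.45, adjusted p = 0.971). With bicuculline it was 4.73, 4.71 and 4.75, also above both DMSO libraries, with a difference of 0.16 (interval -0.05 to 0.37). PK-cleaved NMP peptides ran from 4.50 to 4.86 and NMP peptides plus APV from 4.60 to 4.69, and both overlapped with DMSO. Exons of Bax share 12.2% of their length with Gm45808, a protein-coding model on the same strand, so their reads may not be separable.

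Mcl1 encodes a pro-survival protein that is degraded quickly, so that its level depends on continued synthesis. Its log2 signal with bicuculline was 5.08, 5.00 and 5.15. It was 4.86 and 4.72 with DMSO, 4.80, 4.86 and 4.84 with NMP peptides, 4.71, 4.64 and 4.73 with PK-cleaved NMP peptides, and 4.81, 4.78 and 4.75 with NMP peptides plus APV. All 3 bicuculline libraries stood above the other 11, a position shared by 0.956% of tested genes. The groups without bicuculline differed from each other by at most 0.14.

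Bicuculline minus PK-cleaved NMP peptides was 0.385 for Mcl1 (SE 0.06, interval 0.25 to 0.52, adjusted p = 0.0065), and Mcl1 was the only one of the 10 genes called there, where 0.533% of all genes were called, all of them higher. Bicuculline minus NMP peptides plus APV was 0.295 (interval 0.16 to 0.43, adjusted p = 0.0167), where 2.38% of all genes were called higher. Against DMSO the difference was similar in size, 0.29 (interval 0.14 to 0.44), but did not pass (adjusted p = 0.183), and 0.469% of all genes were called there. Against NMP peptides it was 0.24 (interval 0.11 to 0.38, adjusted p = 0.357), and 0.175% of all genes were called. These differences were small next to other called genes: Mcl1 was number 57 by size of the 58 genes called higher than with PK-cleaved NMP peptides, and number 254 of 259 called higher than with NMP peptides plus APV. The first call was kept in 11 of 14 alternatives (adjusted p up to 0.0948) and the second in 7 of 14 (up to 0.0998). Leaving out bicuculline replicate 3 ended both (adjusted p = 0.0516 and 0.0998), as did fitting only the compared groups (0.0948 and 0.0511). Without the 4 Gfap-rich libraries the differences were 0.44 and 0.33 and neither passed (adjusted p = 0.0606 and 0.0531). The second call was also lost without bicuculline replicate 1 or any 1 library with APV (adjusted p = 0.0502 to 0.0756).

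Mcl1 lies on chromosome 3, at 95656944 to 95663179 of GRCm38.p6 on the plus strand, and no other annotated gene overlaps it. The window chr3:95658471-95658720, on the plus strand, is shown for comparison with that of Hrk. It precedes a RefSeq transcript start inside this span, not the start of the span, and GENCODE M21 places the start of the gene at 95658788.
Mcl1 promoter: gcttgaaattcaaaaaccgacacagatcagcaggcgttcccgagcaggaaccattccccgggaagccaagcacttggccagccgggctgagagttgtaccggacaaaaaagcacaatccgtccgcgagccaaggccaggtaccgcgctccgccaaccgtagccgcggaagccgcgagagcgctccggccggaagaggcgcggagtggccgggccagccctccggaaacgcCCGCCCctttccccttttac
It holds 1 GC box, 20 bases before the RefSeq start that the window precedes, in capitals, and no match to the other motifs. The 250 bases before both starts are rich in G and C, 63.2% for Hrk and 64.4% for Mcl1, against a median of 52.4% over all windows. Promoter windows were on hand for 9 of the 10 genes.

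Bcl2 and Bcl2l1, the founding pro-survival gene and the gene of Bcl-xL, gave no call. Bcl2, whose exons share 6.1% of their length with the antisense gene D630008O14Rik, was low, between 0.93 and 1.36, and its largest difference was 0.19 for bicuculline minus NMP peptides plus APV (interval -0.11 to 0.49). Bcl2l1 ran from 3.59 to 3.93, and its differences were at most 0.08. For NMP peptides plus APV minus PK-cleaved NMP peptides the Bcl2l1 difference was 0.01 (interval -0.18 to 0.19).

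**Figure D2:**
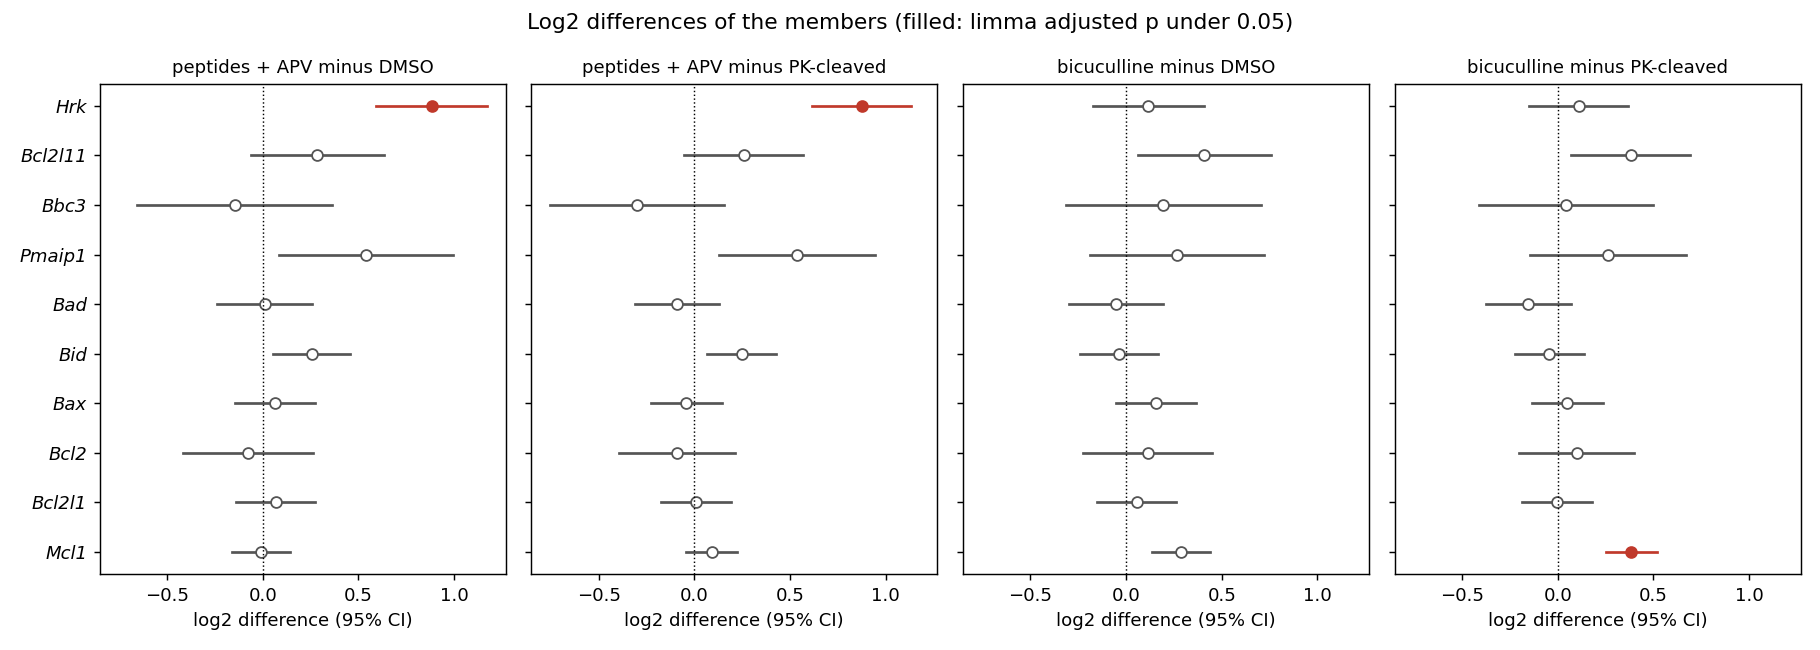
Log2 differences of the 10 genes (horizontal axis) with 95% confidence intervals in 4 comparisons, from limma's fit of all 14 libraries. Filled points passed an adjusted p of 0.05, which only Hrk did in the 2 comparisons of NMP peptides plus APV shown and only Mcl1 in bicuculline minus PK-cleaved NMP peptides.

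The balance between members was taken from the same values by subtraction, so it is no separate evidence. Hrk was below Mcl1 in each of the 11 libraries without APV, by a group mean of -0.27 to -0.54 on the log2 scale, and above it in all 3 libraries with APV, by 0.52 ± 0.12 (SD, n = 3). Hrk exceeded Bcl2l1 by 1.60 ± 0.10 (SD, n = 3) with APV and by group means of 0.73 to 0.85 elsewhere. Bax exceeded Bcl2 by 3.41 to 3.58 and Bcl2l1 by 0.93 to 1.10 in the group means. These are differences of per-length RNA signals and not of protein.

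Counted over all 10 genes, NMP peptides plus APV lay wholly above DMSO for 5 (8.86% of all tested genes did) and above PK-cleaved NMP peptides for 5 (8.84%). Bicuculline lay wholly above DMSO for 3 of the 10 (5.81%), and NMP peptides lay above DMSO for 1 (4.28%) and above PK-cleaved NMP peptides for 1 (2.48%). NMP peptides lay below NMP peptides plus APV for 4 (9.62%) and above for 2 (12.2%). Bicuculline lay above NMP peptides for 2 (3.29%) and above PK-cleaved NMP peptides for 2 (4.16%), and above NMP peptides plus APV for 2 (15.1%) and below for 2 (10.5%). PK-cleaved NMP peptides lay above DMSO for 0 of the 10 (1.88%) and below for 0 (9.15%). In NMP peptides against PK-cleaved NMP peptides 0 of the 10 were called, of 0.0827% of all genes, and in NMP peptides against DMSO 0, of 0.0184%. No gene at all was called between PK-cleaved NMP peptides and DMSO by limma, where 1.05% of all genes and 0 of the 10 had an unadjusted p under 0.05. Median differences of the 10 genes stayed near those of all tested genes, for instance 0.07 against -0.05 for NMP peptides plus APV minus DMSO and 0.05 against -0.02 for the same group minus PK-cleaved NMP peptides. The widest gap was in bicuculline minus DMSO, 0.14 against -0.03.

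In order of level, the only neighbouring groups that differed past the threshold were those of Hrk, where NMP peptides plus APV at 5.30 ± 0.13 (SD, n = 3) led NMP peptides at 4.55 ± 0.07. Below them came bicuculline at 4.54, PK-cleaved NMP peptides at 4.43 and DMSO at 4.42, with an adjusted p of 1 for each step. For Mcl1 bicuculline at 5.08 ± 0.08 (SD, n = 3) was followed by NMP peptides at 4.83 ± 0.03 and DMSO at 4.79 ± 0.10, and the first step had an adjusted p of 0.357.

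Genes with the profile most like that of Hrk over the 14 libraries were the zinc finger gene Zfp811 (Pearson r = 0.944), Trove2 (0.924), Lman2l (0.923), Slc44a5 (0.916) and Prkab2, a subunit of AMP-activated kinase (0.911), out of 10549 genes searched. All of them had their highest group mean with NMP peptides plus APV, for example 3.21 for Slc44a5 against 1.62 to 1.81 in the other groups. Within the 10 genes, Hrk was most like Bid (0.759) and Pmaip1 (0.482), and its r with the pro-survival genes and Bax ran from -0.13 to 0.04. For Mcl1 the closest were Jun (0.945), the polo-like kinase gene Plk2 (0.931) and Tsc22d1 (0.925), all highest with bicuculline, and within the 10 genes Bcl2l11 (0.687). The points of each correlation share libraries and treatments, so r describes likeness only.

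**Figure D3:**
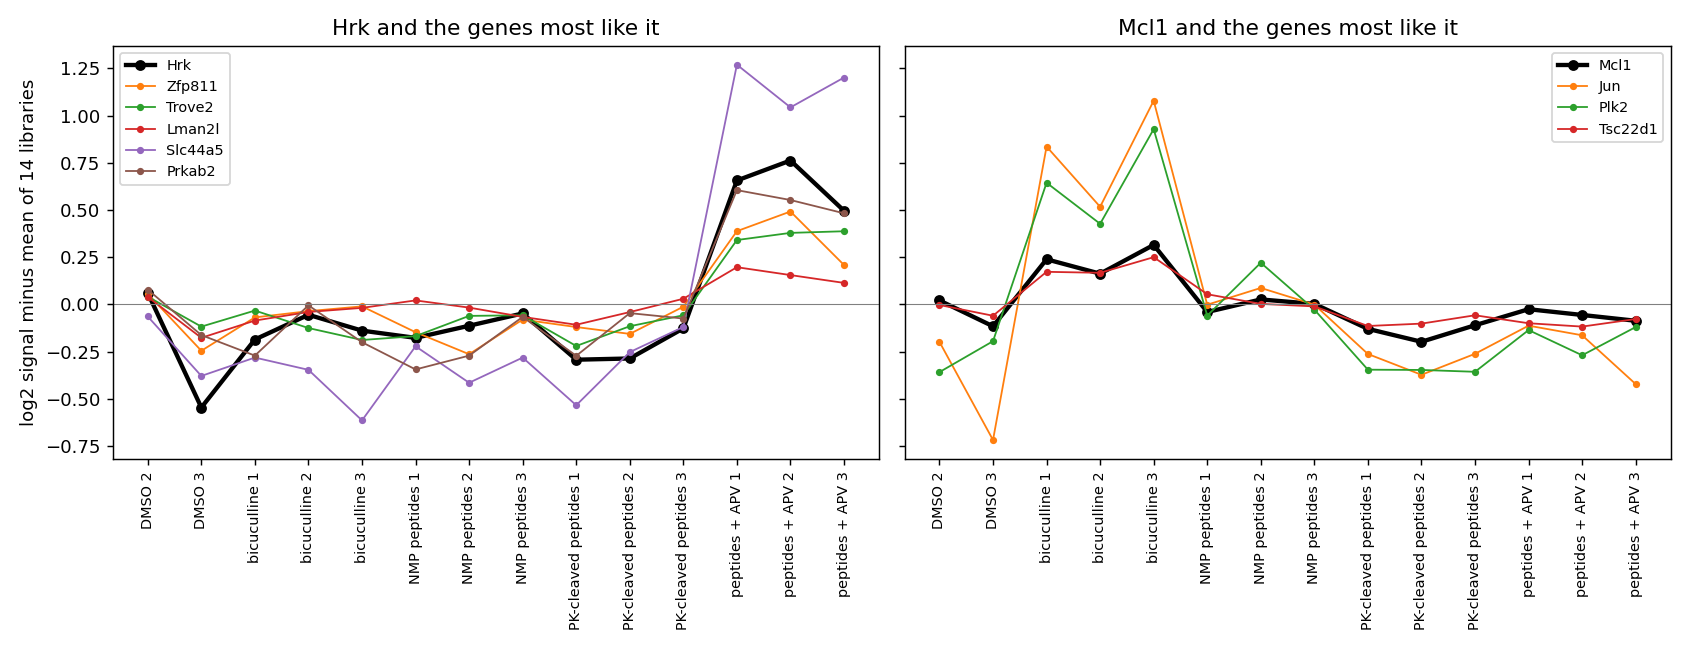
Log2 signal minus the gene's own mean over the 14 libraries (vertical axis) for Hrk and the 5 genes most like it (left) and for Mcl1 and the 3 most like it (right), with 1 point per library. Lines only join the points of a gene. Hrk, Slc44a5 and the others stand above 0 in the 3 libraries with APV, and Mcl1, Jun and Plk2 in the 3 with bicuculline.

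Other genes of the pathway were read from 4 lists. Of 20 further Bcl2 family genes 11 were tested, among them Bak1, the partner effector of Bax, and 0 were called in any of the 10 comparisons. The largest difference was in Bnip3, a mitophagy receptor, at 0.36 for bicuculline minus NMP peptides plus APV (adjusted p = 0.221). Moap1, a Bax-associated gene, followed at -0.31 for NMP peptides plus APV minus PK-cleaved NMP peptides (adjusted p = 0.34). Bik and Bmf, both BH3-only genes, were below the filter on low values.

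Of 23 genes of the apoptosome, the caspases and their inhibitors 19 were tested and 0 were called. Endog, a mitochondrial nuclease gene, differed by 0.37 between bicuculline and NMP peptides plus APV (adjusted p = 0.25), and the executioner caspase gene Casp6 by -0.33 between NMP peptides and PK-cleaved NMP peptides (adjusted p = 1). All 11 genes for turnover of the Mcl1 and Bim proteins were tested and 0 were called. The deubiquitinase gene Usp9x, whose product removes ubiquitin from Mcl1, had 0.40 for NMP peptides plus APV minus PK-cleaved NMP peptides (adjusted p = 0.126). Huwe1, a ubiquitin ligase gene for Mcl1, had 0.33 there (adjusted p = 0.381).

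Regulators of BH3-only genes were the list with calls, though most of its 26 tested genes, of 30 listed, gave none. With bicuculline 2 were called higher than with DMSO, where 0.469% of all genes were called, Junb by 3.34 (SE 0.32, adjusted p = 6.04e-05) and Jun, which encodes the c-Jun subunit of AP-1, by 1.27 (SE 0.16, adjusted p = 0.000558). Hrk differed by 0.12 in the same comparison and was not called. Junb was also higher with NMP peptides than with PK-cleaved NMP peptides, by 1.79 (adjusted p = 0.0243), the only call of the list there, where 0.0827% of all genes were called. Against PK-cleaved NMP peptides bicuculline had the same 2 calls (0.533% of all genes), Junb at 3.28 and Jun at 1.11. Against NMP peptides it had 1 (0.175% of all genes), Jun at 0.78 (adjusted p = 0.0373). The median over the list was -0.04 for bicuculline minus DMSO and -0.03 over all tested genes.

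In the group where Hrk was highest, 3 regulators of 26 were lower than with NMP peptides alone, where 0.883% of all genes were called in that direction. Atf4, a transcription factor of the integrated stress response, was at 6.69 ± 0.37 (SD, n = 3) with NMP peptides plus APV and 7.51 ± 0.08 without APV, a difference of 0.82 (SE 0.16, adjusted p = 0.0187) for NMP peptides minus NMP peptides plus APV. Cebpb differed by 0.90 (adjusted p = 0.0435) and Junb by 1.23 (adjusted p = 0.0463) in the same direction. Atf4 also fell by 0.71 against PK-cleaved NMP peptides (adjusted p = 0.0449), the 1 call there, where 0.781% of all genes were called lower, and 0 of the list were called between NMP peptides plus APV and DMSO. Bicuculline minus NMP peptides plus APV had 6 calls of 26, all higher, where 2.38% of all genes were called higher. The calls were led by Atf3 at 3.08 (adjusted p = 0.00167), Junb at 2.72 and Cebpb at 1.45. Atf3 was low and variable with NMP peptides plus APV, at 0.59 ± 0.92 (SD, n = 3), against 3.66 ± 0.91 with bicuculline. The median of the list was 0.02 for NMP peptides minus NMP peptides plus APV and 0.01 over all tested genes.

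**Figure D4:**
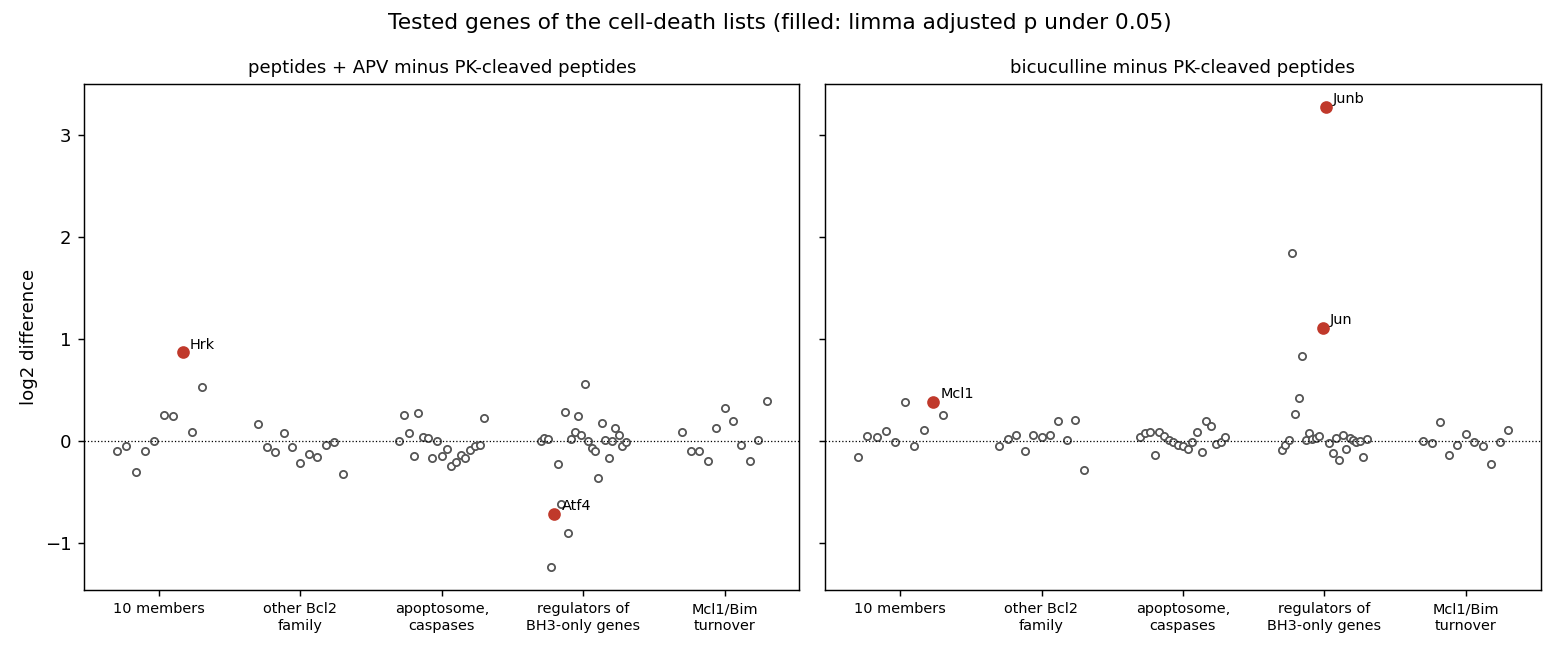
Log2 differences (vertical axis) of the tested genes of the 10 members and the 4 pathway lists (horizontal axis), for NMP peptides plus APV minus PK-cleaved NMP peptides (left) and bicuculline minus PK-cleaved NMP peptides (right). Each point is a gene and filled points passed an adjusted p of 0.05 in limma's test. Hrk and Atf4 are filled on the left, and Mcl1, Jun and Junb on the right.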

How the data were processed

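The deposited table holds quantile-normalised log2 signals of 14 libraries, as the authors made them. Per the labels' protocols, reads were paired-end and 100 bases long. Log base 2 was read from the values, since base 2 antilogs times exon kilobases add up to 1180000 to 1260000 in a library and base e antilogs to 8330000 to 9050000. The build is GRCm38.p6, per the submitters' processing notes, while the aligner, the counter, the annotation and any use of strand were not given in the sources used here. Quantile normalisation hides each library's depth and any change in total RNA.

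Each label gives its column name, which matched columns to samples. The 40% of features with the lowest means were left out (below a mean log2 of 0.35), with gaps ranked at the table minimum. This left 10877 genes with 0 missing values, including 21 whose symbols had become dates, which are not named. One limma fit (version 3.58.1, R 4.3.3) of all 14 libraries had a mean for each group and empirical Bayes with a variance trend, with two-sided p-values adjusted by Benjamini-Hochberg over all tested genes within each of 10 comparisons. The procedure was tested on simulated data.

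The 10 genes and the pathway and marker lists were chosen with earlier results of these data known. All 10 genes are named; of the lists, up to 3 called genes per list and comparison by size, otherwise the 2 with the largest differences. The 5 genes most like Hrk and the 3 most like Mcl1 are named, as are Npas4, Slc44a5, Elk1 and marker genes. Gpr137, Bcl2l13, Gm45808 and D630008O14Rik are named for overlapping exons. Alternatives were no filter or a 60% filter, median centring, a replicate block, array weights, no variance trend, only the compared groups, and each library left out in turn. Leaving out the 4 libraries highest in Gfap, and a block over the paired groups alone, were added after seeing the data. Replicate numbers were taken to pair groups where 3 pairs each correlated over 0.1 in their deviations from group means. This held for NMP peptides with PK-cleaved NMP peptides (0.51, 0.499 and 0.613), from the data and not the labels. Promoters are from RefSeq (GRCm38.p6) and gene overlaps from GENCODE M21.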

Additional observations from a re-analysis of the deposited data

How the results depend on the processing

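Over the alternatives run, 1340 values of the 10 genes were recomputed: 1227 kept their direction and side of the threshold, 12 lost a call, 4 gained one, 0 called values reversed, and 97 uncalled values changed sign (at most 0.31 in size). Hrk against DMSO was the weakest Hrk call: the number of the 10 genes called went from 1 to 0 with only the compared groups in the fit, and from 0 to 1 over the fits leaving out 1 library (difference 0.58 to 1.19). With array weights 2 of the 10 passed when APV was compared with NMP peptides alone (Hrk and Bid), and 3 passed in NMP peptides plus APV against PK-cleaved NMP peptides (Hrk, Bid and Pmaip1). In bicuculline against NMP peptides plus APV 3 also passed, Bid joining Hrk and Mcl1 (Bid -0.33, adjusted p = 0.0175). The single call of bicuculline against PK-cleaved NMP peptides, Mcl1, went to 0 with only the compared groups (adjusted p = 0.0948) and without the 4 libraries highest in Gfap (adjusted p = 0.0606), and ranged from 0 to 1 leaving out single libraries. Bicuculline against NMP peptides plus APV went from 2 to 1, Hrk alone, under the same 2 settings, with only the compared groups and without the Gfap-rich libraries (Mcl1 adjusted p = 0.0511 and 0.0531), and ranged from 1 to 2 leaving out single libraries. The cause was not tested. The replicate block changed no call of the 10 genes (Hrk against DMSO 0.90, adjusted p = 0.0182). Pairing was met only for NMP peptides with PK-cleaved NMP peptides, where 0 of the 10 were called with and without the block. Comparisons with DMSO, which has 2 libraries, could not meet the rule of 3 pairs. With DMSO the correlations were 0.305 and 0.349 for NMP peptides plus APV and 0.542 and 0.169 for bicuculline. They were negative for NMP peptides and for PK-cleaved NMP peptides. Counts over all genes moved more, for instance from 68 to between 5 and 93 for NMP peptides plus APV against DMSO. They went from 156 to between 57 and 615 for NMP peptides with and without APV. For NMP peptides plus APV against PK-cleaved NMP peptides they went from 151 to between 53 and 571. For bicuculline against NMP peptides plus APV they went from 362 to between 191 and 836. The counts over all genes with array weights are not reported here. Dropping 60% of features removes Bcl2l11, Pmaip1 and Bcl2. Leaving out a DMSO library leaves 1, assumed to vary like the other groups. The alternatives for linear values and counts did not apply. Depth is unknown, so limits of detection for low genes such as Bcl2l11 cannot be given.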
